A study of Mus musculus with 15 samples.

Results

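The genes described here are 9 transcripts known as oncofetal, that is, transcripts of the fetal liver that are largely silent in the adult organ and can return in liver tumors. They are Igf2, H19, Afp, Gpc3, Dlk1, Igf2bp1, Igf2bp2, Igf2bp3 and Lin28b. They were taken by gene name from the array design and were represented by 19 of the 55681 probes that are not controls. The set was chosen by the levels of Igf2 and H19, which earlier results of the same arrays had shown to be high in p53-deficient hepatocellular carcinoma (HCC), so that the values of these genes in that comparison are a description and carry no test.

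RNA of 15 whole liver tumors of male mice on a C57BL/6J background was hybridised to 1-colour Agilent mouse arrays, with 1 array per tumor. Of these tumors, 5 were HCC of p53f/f mice, whose Trp53 alleles are floxed but not deleted, 5 were HCC of p53LKO mice, in which Trp53 is deleted in the liver, and 5 were tumors of p53LKO mice labelled intrahepatic cholangiocarcinoma (ICC), a cancer of bile duct type. All mice, the p53f/f controls included, had received carbon tetrachloride (CCl4), a toxin of the hepatocyte, for 16 weeks from 6 weeks of age, at 0.5 µl per g of body weight in olive oil and, per the labels, every 3 days. Mouse 3717 contributed 2 of the p53f/f HCC, so that this group holds 4 mice, and mice 3731, 3733, 3976 and 5283 gave both an HCC and an ICC. The promoter that drives the recombinase is not given in the sources used here, and no normal liver was among the arrays. The study examined mice at several ages, the labels do not give the age at which each tumor was taken, and the part of age in the comparison of the genotypes was not tested.

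Igf2 encodes an insulin-like growth factor that signals through the receptors Igf1r and Insr and is taken out of circulation by Igf2r. It is expressed from the paternal allele, while its neighbour H19, a long non-coding RNA that hosts a microRNA, is expressed from the maternal allele, and both share enhancers and an imprinting control region bound by Ctcf. Afp, a serum protein made by fetal hepatocytes, and Gpc3, a proteoglycan of the cell surface, are the classical markers of HCC. Dlk1 is a membrane protein of hepatoblasts from a second imprinted locus, which it shares with Meg3. Igf2bp1, Igf2bp2 and Igf2bp3 bind the mRNA of Igf2 and of other genes, and Lin28b blocks the maturation of let-7 microRNAs, which in turn repress several of these transcripts.

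Levels are given on a log2 scale, as the processed signal of the probe relative to the 75th percentile of all probes on that array, so that 0 marks the 75th percentile and a step of 1 is a factor of 2. A probe was called well above background by the scanner software, and this call was given to 55.1% to 70.1% of the probes of a p53f/f HCC array, 37.0% to 62.1% on p53LKO HCC and 42.5% to 47.0% on ICC. The low end belongs to the lower row of the slides, which held the HCC of mice 3976 and 5283 (46.4% and 37.0%) and all 5 ICC. In the upper row lay all p53f/f HCC and the other 3 p53LKO HCC. Levels of probes near background were lower in the upper row than in the lower one, and group and row cannot be told apart for most arrays. The p53f/f HCC of mouse 3716 stood apart in the summed level of 8 markers of T and B cells, with 9.26 against 2.72 to 3.70 on the other 14 arrays. The 1 probe named Trp53 was at -1.01 ± 0.28 (SD, n = 5) in p53f/f HCC, -3.09 ± 0.46 in p53LKO HCC and -3.07 ± 0.70 in ICC. The array files annotate it to a RefSeq transcript of Trp53 but place it on chromosome 17 of mm9, away from Trp53 itself. Because of this conflict it was not taken as a check of the deletion. The 12 hepatocyte markers summed to 11.5 to 12.2 in p53f/f HCC, 11.0 to 11.5 in p53LKO HCC and 9.37 to 10.73 in ICC. In the same order the 10 biliary markers summed to 2.71 to 4.95, 4.08 to 4.88 and 6.15 to 7.21. The biliary sum of ICC rests largely on Spp1, which alone read 5.71 to 7.02 there. Muc1, another biliary marker, was not above background on any ICC array.

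Igf2 was the member with the widest distance between the genotypes. In p53f/f HCC its probe read -3.66 in mouse 3681, -4.61 in mouse 3715, -3.98 in mouse 3716, and -4.70 and -4.44 in the tumors of mouse 3717, and it was well above background on only 2 of these 5 arrays. In p53LKO HCC it read 2.68 in mouse 3976, 2.39 in mouse 5283, 4.30 in mouse 3731, 2.64 in mouse 3733 and 5.49 in mouse 3975. All 5 p53LKO HCC lay above all 5 p53f/f HCC, and the lowest of them was 6.04 above the highest p53f/f array. The group means were 3.50 ± 1.34 and -4.28 ± 0.44 (SD, n = 5 each), a difference of 7.77 ± 0.55 (SE) on the log2 scale. In ICC, Igf2 was intermediate and split, with -0.13 in mouse 3731, -0.57 in mouse 3976 and -1.67 in mouse 5283, each well above background, and -3.99 in mouse 3733 and -4.23 in mouse 3977, which were not. All 5 ICC lay below all 5 p53LKO HCC, and the difference of ICC from p53LKO HCC was -5.61 ± 0.90 (SE). The choice of the background correction changed the size of the first difference, which was 5.24 with the normexp method.

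**Figure D1:**
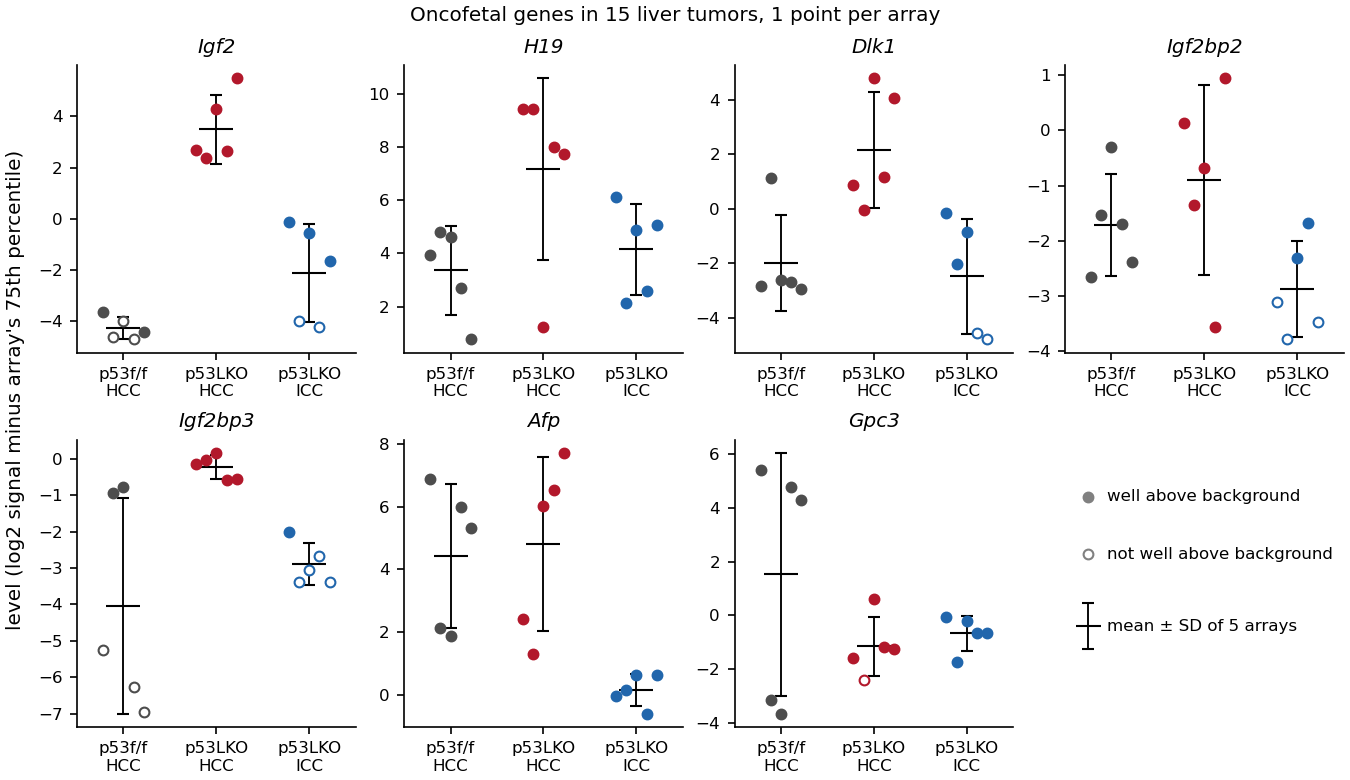
Levels of the 7 members that were well above background on 3 or more arrays, as log2 signal minus the 75th percentile of the array, with 1 point per array, filled where the probe was well above background, and bars for the mean ± SD of 5 arrays. Igf2 and, on this scaling, Igf2bp3 of p53LKO HCC lie above every p53f/f HCC, Afp of ICC lies below every HCC, and Afp and Gpc3 of p53f/f HCC fall into a high and a low set.

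H19 was the second member of the locus and did not follow Igf2 in every tumor. In p53f/f HCC the brightest of its 7 probes read 3.94 in mouse 3681, 4.82 in mouse 3715, 4.60 in mouse 3716, and 2.71 and 0.77 in mouse 3717. In p53LKO HCC it read 9.44 in mouse 3976, 9.44 in mouse 5283, 7.99 in mouse 3733 and 7.74 in mouse 3975, but 1.23 in mouse 3731. The first 4 lay above all p53f/f HCC and the tumor of mouse 3731 lay below 4 of the 5. That tumor had the second highest Igf2 of its group, so that Igf2 was high with H19 low in 1 of 5 p53LKO HCC, and high with H19 high in the other 4. The difference between the genotypes was 3.80 ± 1.45 (SE), 5.28 without the HCC of mouse 3731, 5.23 with the slide as a block and 2.29 within the upper row, where that tumor is 1 of 3 p53LKO HCC. In ICC, H19 read 6.10 in mouse 3731, 4.89 in mouse 3976, 5.08 in mouse 5283, 2.14 in mouse 3733 and 2.58 in mouse 3977. The 3 ICC with Igf2 above background were the 3 with the higher H19, and in mouse 3731 the ICC carried more H19 than the HCC, by 4.87. The groups of ICC and p53LKO HCC overlapped, with a difference of -3.01 ± 1.46 (SE), or -4.49 without the HCC of mouse 3731. Within the lower row, which held 2 HCC and all 5 ICC, it was -5.28 and the groups did not overlap.

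The 7 H19 probes lie on the minus strand of chromosome 7 of mm9 within 925 bases, at least in their start points, and 6 of them differed between the genotypes by 3.80 to 4.46. The seventh lies farthest upstream, is annotated to the transcript NR_001592 alone, and differed by 0.68 ± 0.47 (SE). Its own means were -2.46 ± 0.22 in p53f/f HCC, -1.78 ± 1.17 in p53LKO HCC and -2.87 ± 0.37 in ICC (SD, n = 5 each). The sequences of the brightest probe and of this one, as given in the array files, are shown because a reader would otherwise take both for the same readout of H19.
brightest H19 probe, chr7:149761492-149761551 (mm9, minus strand): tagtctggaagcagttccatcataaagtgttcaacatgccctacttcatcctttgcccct
upstream H19 probe, chr7:149762417-149762476 (mm9, minus strand): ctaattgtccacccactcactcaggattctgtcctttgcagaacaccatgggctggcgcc

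**Figure D2:**
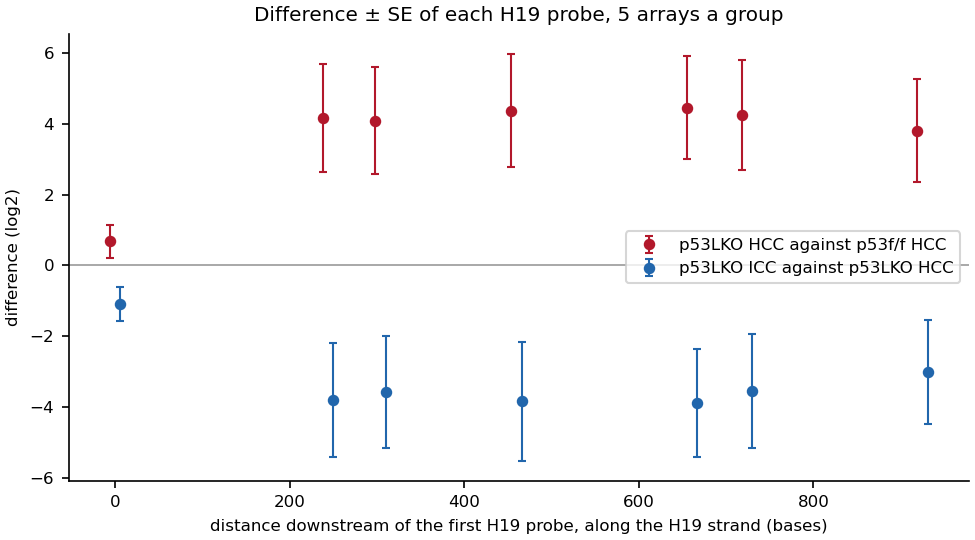
Difference ± SE (log2) of each of the 7 H19 probes between p53LKO HCC and p53f/f HCC and between ICC and p53LKO HCC, 5 arrays per group, against the distance of the probe in bases from the one farthest upstream. The 6 downstream probes differ by 3.80 to 4.46 between the genotypes, and the first probe by 0.68.

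An antisense transcript of the locus, Igf2os, was chosen after its own values had been seen. Its probe read -2.79 ± 0.40 in p53f/f HCC, -0.45 ± 1.40 in p53LKO HCC and -2.84 ± 0.38 in ICC (SD, n = 5 each). All 5 p53LKO HCC lay above all p53f/f HCC and above all ICC, where the probe was not above background on any array, so that it was at least 4.57-fold higher in p53LKO HCC than in ICC.

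Dlk1, from the second imprinted locus, was higher in p53LKO HCC with overlap between the genotypes. In p53f/f HCC it read -2.84 in mouse 3681, -2.61 in mouse 3716, and -2.67 and -2.96 in mouse 3717, but 1.14 in mouse 3715. In p53LKO HCC it read 4.80 in mouse 3731, 4.06 in mouse 3975, 1.16 in mouse 3733, 0.87 in mouse 3976 and -0.03 in mouse 5283. The p53f/f HCC of mouse 3715 thus lay among the lower p53LKO HCC, and the 2 tumors with the highest Dlk1 were also the 2 with the highest Igf2. The difference between the genotypes was 4.16 ± 1.06 (SE), and 4.94 without the tumor of mouse 3715. A second Dlk1 probe differed by 4.61 ± 1.27 (SE), and of the p53f/f tumors 1 of 5 gave it a signal well above background.

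The 3 proteins that bind the Igf2 mRNA behaved differently from each other. Igf2bp3 read between -0.57 and 0.17 in the 5 p53LKO HCC, the narrowest spread of any member in this group, with an SD of 0.33. In p53f/f HCC it read -0.94 in mouse 3715 and -0.77 in mouse 3716, and -5.24 in mouse 3681, -6.27 and -6.96 in mouse 3717, where it was not above background. All p53LKO HCC lay above all p53f/f HCC, by only 0.19 at the nearest pair. With the arrays scaled on the 75th percentile of the probes above background on all arrays, mice 3733 (-3.99) and 3975 (-3.94) fell below p53f/f mouse 3716 (-3.89) and the groups overlapped. The mean difference of 3.81 ± 1.15 (SE) rests on the 3 p53f/f tumors at background, falling to 1.5 with the normexp correction. Igf2bp2 ranged from -2.65 to -0.29 in p53f/f HCC and from -3.56 to 0.94 in p53LKO HCC, a difference of 0.81 ± 0.75 (SE) with overlapping groups, which ranged from 0.34 without the HCC of mouse 3975 to 1.47 without that of mouse 3733. Igf2bp1 was not above background on any of the 15 arrays.

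Lin28b was above background on 2 of 15 arrays, both of them ICC. Its brighter probe read -1.88 in the ICC of mouse 3733 and -1.97 in that of mouse 5283, against -4.87 to -4.37 in the other 3 ICC, -7.14 to -4.13 in p53LKO HCC and -6.43 to -5.75 in p53f/f HCC. The second Lin28b probe was not above background on any array. Neither Lin28b nor Igf2bp1 passed the filter on dim probes, so that 7 of the 9 members entered the fits.

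Afp and Gpc3 split the p53f/f HCC into the same sets. Afp read 6.90 in mouse 3681 and 6.01 and 5.31 in mouse 3717, but 2.12 in mouse 3715 and 1.87 in mouse 3716. Gpc3 read 5.42, 4.77 and 4.31 in the first 3 of these tumors, and -3.14 and -3.66 in the other two. No p53f/f HCC lay between the sets for either gene, and the tumors of mouse 3717 are not independent of each other. The 3 tumors with high Afp and Gpc3 were those with Igf2bp3 at background. These values were seen first and then described, and no test was made of the split.

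In some of the p53LKO HCC, Afp was high without Gpc3. Afp read 7.74 in mouse 3975, 6.54 in mouse 3733 and 6.03 in mouse 3731, which reach the level of the high p53f/f set, and 2.43 in mouse 3976 and 1.31 in mouse 5283. The tumors with high Afp lay in the upper row of 1 slide and the others in the lower row of the other slide, so that tumor and array position cannot be told apart here. Gpc3 was 0.63 in mouse 3731 and -2.42 to -1.17 in the other 4, none of which reached the 3 high p53f/f tumors. The differences between the genotypes were 0.37 ± 1.39 for Afp and -2.70 ± 1.79 for Gpc3 (SE). The sign of the Afp difference depended on single tumors, with a range from -0.36 to 1.24 when 1 tumor was left out at a time, and it was 2.33 within the upper row. The Gpc3 difference ranged from -4.00 without the p53f/f HCC of mouse 3716 to -1.73 without that of mouse 3681.

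The stretches of 250 bases before the annotated starts of Afp and Gpc3 are shown because both genes were high in the same p53f/f tumors. In the p53LKO HCC of mice 3731, 3733 and 3975, Afp was high and Gpc3 was not. A link between these sequences and the levels was not tested. They are RefSeq sequences of GRCm38.p6, and capitals mark matches to TATAAA, the core of the TATA box, searched on both strands.
Afp, chr5:90490464-90490713 (GRCm38.p6, plus strand): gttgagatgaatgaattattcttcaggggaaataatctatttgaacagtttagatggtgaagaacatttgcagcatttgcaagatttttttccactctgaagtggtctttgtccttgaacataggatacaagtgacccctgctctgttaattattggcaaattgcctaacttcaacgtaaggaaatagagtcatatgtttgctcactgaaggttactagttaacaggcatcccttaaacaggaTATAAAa
Gpc3, chrX:52613975-52614224 (GRCm38.p6, minus strand): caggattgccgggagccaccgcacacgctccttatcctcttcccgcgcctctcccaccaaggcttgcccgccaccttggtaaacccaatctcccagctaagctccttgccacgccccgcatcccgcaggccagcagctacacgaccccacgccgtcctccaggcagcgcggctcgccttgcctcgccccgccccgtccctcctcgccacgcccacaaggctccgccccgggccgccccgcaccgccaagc

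The Afp window holds TATAAA 7 bases before the start, has a GC content of 36.0% and holds 1 CG dinucleotide. The Gpc3 window does not hold it, has a GC content of 71.6% and holds 25 CG dinucleotides. Of 32851 windows of this length, 12.4% hold TATAAA, the median GC content is 52.4% and the median number of CG dinucleotides is 6. The consensus decamer of p53 was found in the Gpc3 window, 191 bases before the start, in 1 of the 4 windows of Igf2 and in no window of Afp, Dlk1, Igf2bp2, Igf2bp3 or Lin28b, against 7.13% of all windows. A match is a run of letters and not a measured binding site.

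Whether the members were high in the same tumors was read from their levels against the highest p53f/f HCC. Between the genotypes, 19.6% of all tested probes were called, 3.64% higher and 16% lower in p53LKO HCC, and no call is given for the members. Across these probes, 6.1% had every p53LKO HCC above every p53f/f HCC, and 2 of the 7 members, Igf2 and Igf2bp3, were of this kind, though Igf2bp3 was not when the arrays were scaled on the probes above background on all arrays. Since this comparison put Igf2 forward, nothing is read from that count. The HCC of mouse 3975 exceeded the p53f/f range in 6 of the 7 members, all but Gpc3. Those of mice 3976 and 3733 did so in 4, and those of mice 5283 and 3731 in 3. Among the ICC, the tumors of mice 3731, 3976 and 5283 exceeded it in 2 members, in each case Igf2 and H19, and the tumors of mice 3733 and 3977 in none. H19 did so by only 0.07 in mouse 3976 and 0.27 in mouse 5283. All ICC lay in the lower row and all p53f/f HCC in the upper row, so group and row cannot be told apart here. With the arrays scaled on the probes above background on all arrays, the count was 2 for the HCC of mouse 3733 and 5 for that of mouse 3975. The share of all probes above the p53f/f range is not given for each tumor, so these counts are a description only.

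**Figure D3:**
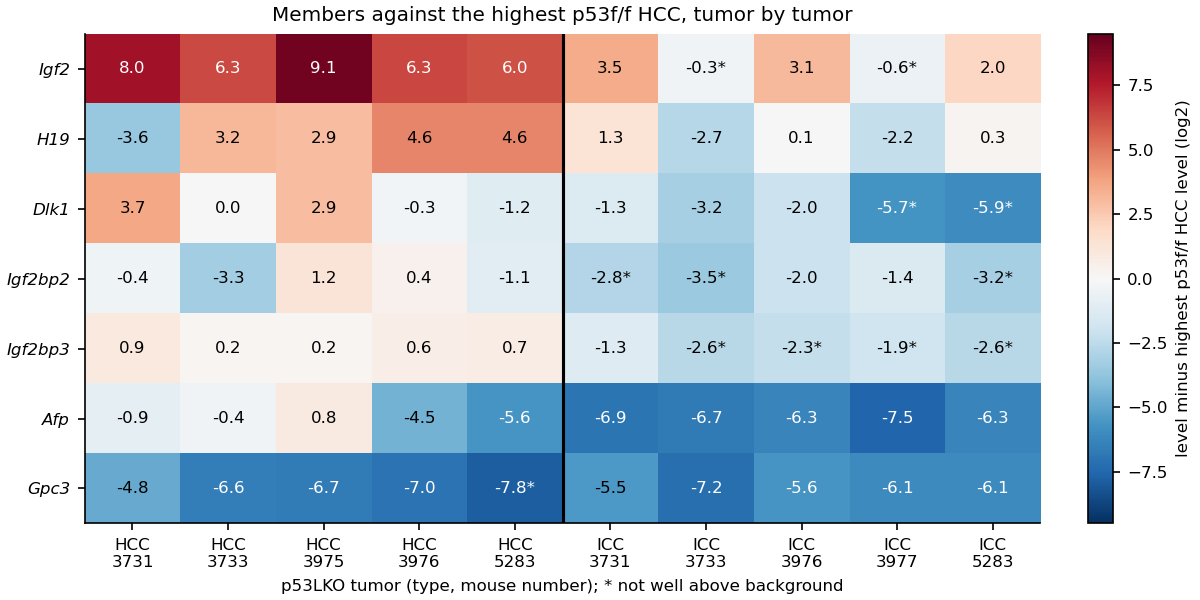
Level of each member minus its highest level in p53f/f HCC (log2, colour and printed value) in the 10 p53LKO tumors, ordered by tumor type and mouse number. Igf2 is positive in all 5 HCC and 3 ICC, H19 is negative in the HCC of mouse 3731, and Gpc3 is negative in all 10.

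After the group means had been subtracted, the levels of 2 members over the 15 tumors gave the following correlations, which are descriptions because tumors of 1 mouse and arrays of 1 slide are not independent. Of the 21 pairs of the 7 members, the closest were Gpc3 with Igf2bp3, which ran opposite (r = -0.87, Spearman's rho = -0.58), and Afp with Gpc3 (r = 0.71, rho = 0.66). Afp also ran opposite to Igf2bp3 (r = -0.61, rho = -0.64). Igf2 varied with Dlk1 (r = 0.56, rho = 0.54), and its r with H19 was 0.12 (rho = 0.01). The values of Gpc3 and Igf2bp3 lie in separate sets within p53f/f HCC, and the coefficients of these 2 genes rest largely on that split.

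**Figure D4:**
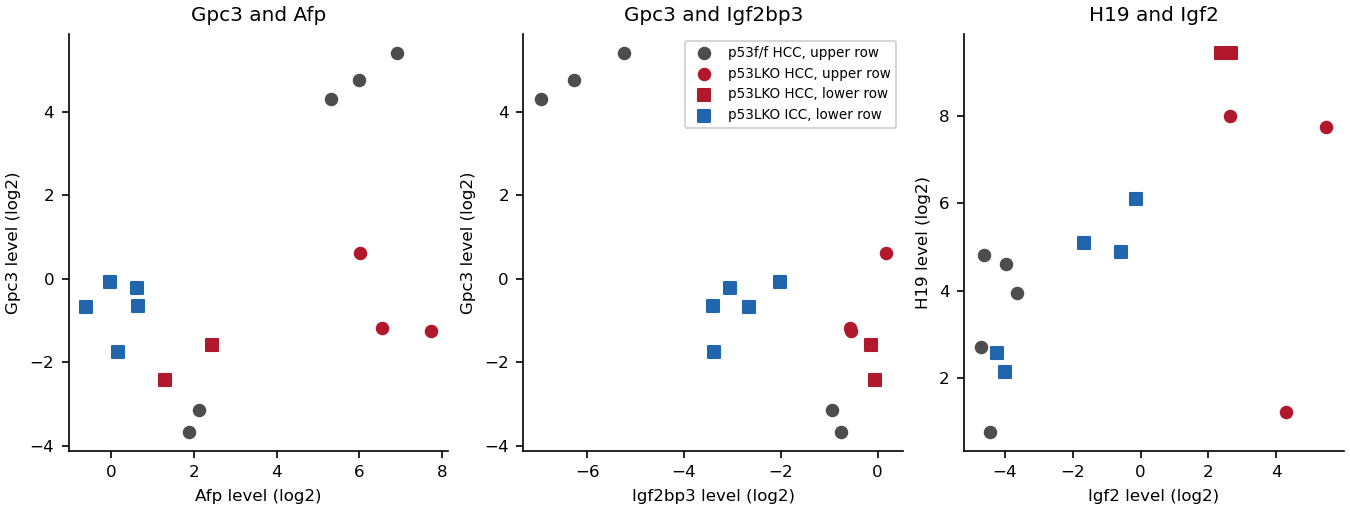
Levels of 2 members in the 15 tumors (log2 signal minus the 75th percentile of the array), with colour for the group and circles or squares for the upper or lower row of the slide. Of the p53f/f HCC, 3 lie at high Afp, high Gpc3 and low Igf2bp3, and the p53LKO HCC of mouse 3731 lies at high Igf2 and low H19.

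The genes whose pattern over the 15 arrays was most like that of Igf2, among 17025 genes compared after subtracting group means, were Gm715 (r = 0.81), Abr (r = 0.78) and Fam114a1 (r = 0.77). Gm715 was above background on 8 of the 15 arrays, Abr on 11 and Igf2 itself on 10, so that these coefficients rest in part on values at background. For H19, 2010107G23Rik was among the nearest (r = 0.85), and for Afp they were Wars (r = 0.91), P2rx7 (r = 0.90) and Srp54c (r = 0.90). No other member was among them. These are the highest of 17025 coefficients over 15 arrays, a search that can give high values for unrelated genes, and no test was made of them.

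The comparison of ICC with HCC of p53LKO mice asked whether these genes differ between tumor types of the same genotype. Afp and Dlk1 were lower in ICC and Gpc3 did not pass the test. Igf2bp3 and Igf2bp2 passed the filter on dim probes only through the HCC, where they are high, so that their values are a description and carry no test. Of the other 3 members in this test, 2 were called lower by limma (adjusted p under 0.05 and over 2-fold) and none higher, where 26.4% of all tested probes were called, 13.4% lower and 12.9% higher. In Afp and Dlk1 all ICC lay below all HCC, which held for 18.6% of the probes, and in none did all ICC lie above, as in 9.99% of the probes. Igf2 and H19 were left out of this test, because the p53LKO HCC arrays are shared with the comparison in which they were noticed. Fewer cells of a type and less RNA per cell cannot be told apart in whole tumors, and the part of hepatocyte content in these results was not tested, though 7 of 12 hepatocyte markers were also called lower in ICC. Of 10 fibroblast and stellate markers 7 were called higher, and their summed level was 8.97 to 9.80 in ICC against 6.27 to 8.02 in p53LKO HCC. Of 8 T and B cell markers 4 were called higher (summed level 2.72 to 3.70 in ICC against 2.81 to 3.15), and of 4 erythroid markers tested 3 were called lower (4.38 to 5.47 against 5.53 to 7.12). The part of these cells in the results was not tested. Of 9 biliary markers tested, 4 were called higher, Epcam and Krt7 of them through the ICC alone, and 1 lower.

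Afp read -0.03 in mouse 3731, 0.16 in mouse 3733, 0.61 in mouse 3976, -0.61 in mouse 3977 and 0.64 in mouse 5283 in the ICC, above background on all 5 arrays. The lowest HCC, at 1.31, lay above all of them. The difference was -4.66 ± 1.09 (SE; 25.3-fold; limma adjusted p = 0.00616; exact permutation p = 0.00794, two-sided and the smallest that 5 against 5 allow). It was -1.72 within the lower row, where only 2 HCC lay, and adjusted p was 0.0331 with the row as a block and 0.0505 by the methods' t-test. With the mouse as a block it was -3.74 (limma adjusted p = 0.0454). The permutation, here and below, treats the tumors as independent, although 4 mice gave both an HCC and an ICC.

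Dlk1 read -0.13 in mouse 3731, -2.03 in mouse 3733 and -0.86 in mouse 3976 in the ICC, and -4.55 in mouse 3977 and -4.80 in mouse 5283, where it was not above background. The difference from HCC was -4.65 ± 1.15 (SE; limma adjusted p = 0.00829; exact permutation p = 0.00794). With the row as a block it was -2.90 and no longer called (adjusted p = 0.134). The second Dlk1 probe was not above background on any ICC array and was at least 3.73-fold higher in HCC, a value that carries no test for the same reason as Igf2bp3.

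Igf2bp3 read -2.02 in the ICC of mouse 3731, where it was above background, and -3.39 to -2.67 in the other 4, where it was not. The difference was -2.68 ± 0.28 (SE), and all ICC lay below all HCC. It was -2.81 within the lower row and -1.36 with the normexp correction. For Igf2bp2 the difference was -1.97 ± 0.74 (SE), and -1.80 with the mouse as a block, in the 4 mice with both tumors. Its second probe was at least 2.25-fold higher in HCC. Gpc3 differed by 0.49 ± 0.51 (SE; limma adjusted p = 0.459; exact permutation p = 0.429), with levels of -1.75 to -0.07 in ICC.

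Within the 4 mice that gave both tumor types, Igf2, Afp, Dlk1, Igf2bp2 and Igf2bp3 were lower in the ICC in 4 of 4 mice. Lin28b was lower in 0 of 4 and Igf2bp1 in 1 of 4, but neither was above background in any of these HCC. The share of all probes lower in 4 of 4 mice is not given, so these counts are a description only. The mean steps from HCC to ICC were -4.59 ± 1.45 for Igf2, -3.74 ± 2.92 for Afp, -3.66 ± 1.5 for Dlk1 and -2.82 ± 0.48 for Igf2bp3 (SD, n = 4). In mice 3731 and 3733 the HCC lay in the upper row and the ICC in the lower, so type and row cannot be told apart there. In mice 3976 and 5283 both lay in the lower row. The Afp steps were -6.07 and -6.39 in mice 3731 and 3733, and -1.82 and -0.67 in mice 3976 and 5283. H19 was lower in 3 of 4 mice, with the opposite step in mouse 3731, and Gpc3 in 2 of 4.

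**Figure D5:**
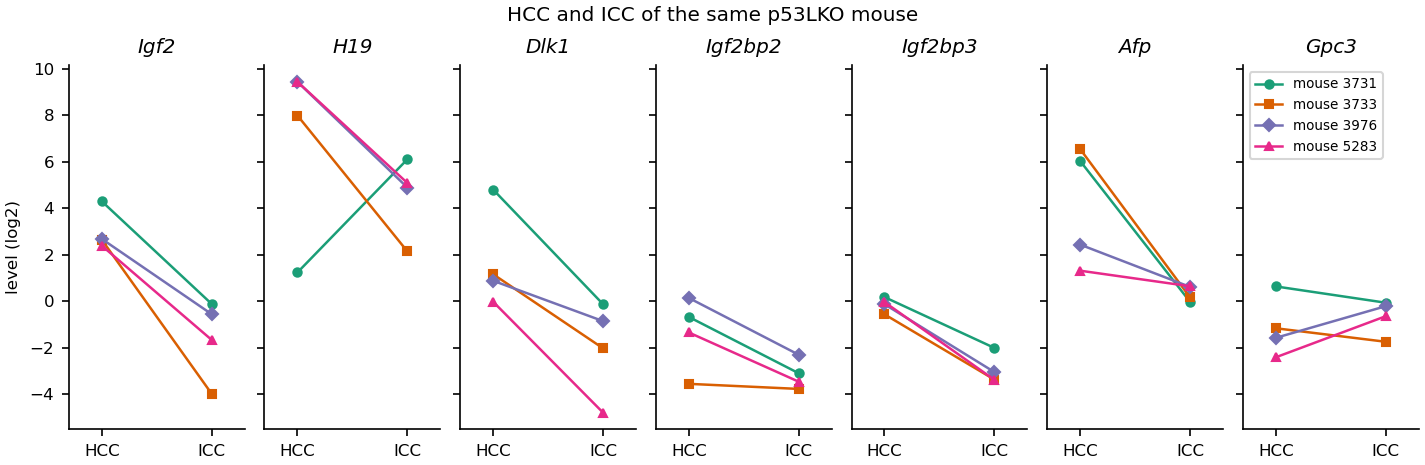
Levels (log2 signal minus the 75th percentile of the array) of the HCC and the ICC of the same p53LKO mouse, with 1 line for each of 4 mice. The lines of Igf2, Dlk1, Igf2bp2, Igf2bp3 and Afp fall in all 4, and H19 is higher in the ICC of mouse 3731 only.

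Other genes of the pathways were read from 6 lists, with 1 probe per gene and without the members. Between the genotypes, 5.42% of all genes with a symbol were called higher and 9% lower in p53LKO HCC, with a median difference of 0.09. Of 17 tested IGF signalling partners, 2 were called higher and 2 lower (list median 0.21). The binding protein Igfbp6 rose by 3.87 ± 0.86 and the protease Htra1, which cleaves binding proteins, by 1.73 ± 0.49, while Pappa, another such protease, fell by 3.38 ± 0.29 and the growth factor Igf1 by 2.77 ± 0.37 (SE; limma adjusted p = 0.0064, 0.0196, 8.21e-05 and 0.000356). Of the 5 Igf1 probes, 4 were called lower and 1 was not. The call of Htra1 was lost with quantile normalization, with the slide as a block and by the methods' t-test. Igf1r differed by -0.53 ± 0.43 (adjusted p = 0.366) and Igf2r by -0.04 ± 0.33 (adjusted p = 0.942), and neither was called.

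Of 27 tested imprinted genes, 2 were called higher and 1 lower (list median -0.13). Mirg, a host RNA of microRNAs from the locus of Dlk1, rose by 2.48 ± 0.31 by its brightest probe (limma adjusted p = 0.000259), and its other 2 tested probes differed by 0.23 and -0.56 and were not called. Kcnq1ot1, the antisense RNA that silences its domain in cis, fell by 2.03 ± 0.39 (adjusted p = 0.00289). Phlda2, a gene of that domain, rose by 1.36 ± 0.44 (adjusted p = 0.0362), a call lost in 12 of 22 alternatives. Phlda2 was the only one called, in either direction, of 16 tested neighbours of Igf2 on chromosome 7 (list median -0.07). Meg3 read from -3.91 to 2.91 in p53f/f HCC and from -5.11 to 4.61 in p53LKO HCC, with 3.43, 4.61 and 1.11 in mice 3731, 3733 and 3975 and -5.11 and -3.49 in mice 3976 and 5283. These are the same HCC as those with high and low Afp, and again the upper and lower rows. The Meg3 difference was 0.20 ± 1.91 (SE; adjusted p = 0.945).

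Of 24 tested regulators of Igf2, H19 and Afp, 4 were called higher and none lower (list median 0.23). Zhx2, a repressor of Afp, H19 and Gpc3 in adult liver, was among the 4, but it was not above background in any p53f/f HCC and in only 3 p53LKO HCC, at least 1.62-fold higher. It passed the filter on dim probes through 1 group only, no p is given for it, and the sign turned with the normexp correction (-0.08). Zbtb20, another repressor of Afp, differed by 0.15 ± 0.27 (adjusted p = 0.691). Of 25 genes of the LIN28 and let-7 axis, 6 were called higher and 1 lower (list median 0.09). The cyclin Ccnd2 rose by 2.44 ± 0.62 and the phosphatase Cdc25a by 1.46 ± 0.23 (adjusted p = 0.0119 and 0.000959), and Hmga2, a chromatin protein of fetal tissue, fell by 1.45 ± 0.27 (adjusted p = 0.00247). The call of Hmga2 was lost, under 2-fold, with median scaling (-0.85), normexp (-0.94) and quantile normalization (-0.97), and that of Ccnd2 by the methods' t-test (adjusted p = 0.0732). Lin28a differed by -0.49 ± 0.23 (adjusted p = 0.133). Of 23 other oncofetal and hepatoblast genes, 4 were called higher and none lower (list median 0.60). Sox4, a transcription factor, rose by 1.92 ± 0.47 and the pyruvate kinase Pkm by 1.61 ± 0.34 (adjusted p = 0.0106 and 0.00507). With the row as a block Sox4 was at 1.58 and not called (adjusted p = 0.0509).

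Between ICC and HCC of p53LKO mice, 12.3% of all genes with a symbol were called higher and 15.5% lower in ICC, with a median difference of -0.19. Of the 42 genes of the 6 lists called in this comparison, 5 (Pappa2, Syt8, Ctcfl, Epcam and Bex2) passed the filter on dim probes only through the group where they are high, and their values are given with no p. Of 18 tested IGF partners, 4 were called higher and 3 lower (list median 0.01). Pappa rose by 3.77 ± 0.59, while the insulin receptor substrate Irs1 fell by 2.28 ± 0.33 and Htra1 by 1.39 ± 0.37 (SE; limma adjusted p = 0.000685, 0.000486 and 0.0109). The related Pappa2 was above background in none of the HCC and was at least 4.12-fold higher in ICC. Igf1r rose by 1.90 ± 0.47 (adjusted p = 0.00829), and with the mouse as a block it was 1.82 and not called (adjusted p = 0.0561), nor was the fall of Htra1 (adjusted p = 0.098, and 0.163 with the row as a block). Igf2r differed by 0.19 ± 0.33 (adjusted p = 0.658).

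Of 24 imprinted genes tested between ICC and HCC, 2 were called higher and 3 lower (list median -0.02). Decorin (Dcn), a matrix protein that also marks fibroblasts, rose by 2.30 ± 0.26 and Kcnq1ot1 by 1.68 ± 0.47, while Mirg fell by 3.72 ± 0.64 by its brightest probe and Phlda2 by 2.75 ± 0.28 (SE; limma adjusted p = 0.000121, 0.0141, 0.00121 and 7.29e-05). The other 2 Mirg probes differed by 0.55 and 1.16 and were not called. Of 17 neighbours of Igf2 on chromosome 7, 5 were called higher and 2 lower (list median 0.63). The potassium channel Kcnq1 rose by 4.67 ± 0.56 (adjusted p = 0.000185), and the transporter Slc22a18 fell by 1.83 ± 0.22 (adjusted p = 0.000185). Syt8 differed by 1.89 ± 0.60, and its call was lost in 9 of 17 alternatives. Meg3 differed by 1.76 ± 1.72 (adjusted p = 0.426), but with the row as a block it was called higher in ICC, by 6.17 (adjusted p = 0.00432). In the lower row it read -5.11 and -3.49 in the 2 HCC, not above background, and 0.77 to 4.37 in the 5 ICC.

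Of 24 regulators, 2 were called higher and 6 lower in ICC (list median -0.37). Ctcfl, a paralog of the imprinting factor Ctcf, differed by -2.94 ± 0.47 (SE) and was above background on 1 of 5 ICC arrays. Hnf4a, a master factor of hepatocytes, fell by 2.03 ± 0.28 (SE; limma adjusted p = 0.000396), and the DNA methyltransferase Dnmt3a rose by 1.03 ± 0.18 and Foxa1 by 1.02 ± 0.30 (adjusted p = 0.00137 and 0.0181), both close to the limit of 2-fold. With the mouse as a block Foxa1 was at 0.94, under 2-fold, and its call was lost in 9 of 21 alternatives and that of Dnmt3a in 5. Zbtb20 differed by -0.74 ± 0.24 (adjusted p = 0.0257), which did not reach 2-fold, though it did with median scaling (-1.09) and with the row as a block (-1.12). Zhx2 was not above background on any ICC array and on 3 of 5 HCC arrays, and no difference is given. Of 25 genes of the LIN28 and let-7 axis, 2 were called in each direction (list median -0.07). Mycn rose by 1.91 ± 0.39 and Arid3a by 1.46 ± 0.29, while Ccnd2 fell by 1.76 ± 0.63 and Cdc25a by 1.23 ± 0.20 (adjusted p = 0.00288, 0.00267, 0.041 and 0.000897). The call of Ccnd2 was lost in 13 of 21 alternatives, with the mouse as a block among them (adjusted p = 0.0785). Lin28a differed by -0.26 ± 0.25 (adjusted p = 0.415) and Hmga2 by 1.00 ± 0.45 (adjusted p = 0.0951), which was called with the percentile of detected probes (1.37, adjusted p = 0.0419) and without the ICC of mouse 5283 (1.31, adjusted p = 0.0229). The call of Mycn was lost with normexp (0.92) and with all arrays in 1 model (adjusted p = 0.0674), and that of Cdc25a with the percentile of detected probes (-0.86). Of 24 other oncofetal and hepatoblast genes, 5 were called higher and 8 lower (list median -0.07). Spp1, which also marks bile duct cells, rose by 4.73 ± 0.35 (adjusted p = 1.28e-05). Epcam, another such marker, was not above background in any HCC and was at least 94-fold higher in ICC. Bex2, not above background in any ICC, was at least 6.43-fold lower. The trefoil peptide Tff3 fell by 4.70 ± 1.31 (adjusted p = 0.0145). Tff3 was not called with the mouse as a block (-3.57, adjusted p = 0.108), with the row as a block (-1.55, adjusted p = 0.265) or by the methods' t-test (adjusted p = 0.0531).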

How the data were processed

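RNA of 15 tumors was measured, and groups were taken from the labels. The authors extracted the scans with Feature Extraction 10.7.3.1, and the deposited files give each spot a processed signal intensity, with background subtracted. A table deposited for the whole series has log2 values, which ran with the processed signal scaled per array and centred per probe (r of at least 0.9999 for 13 of 15 arrays). HCC and ICC columns are centred on different arrays, so it served only as an alternative for the HCC arrays.

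Fits used limma 3.58.1 (R 4.3.3) and plots matplotlib 3.10.9 (Python 3.11.15). Unflagged spots of a probe were averaged as log2 and scaled by subtracting the array's 75th percentile, control probes left out. A probe was tested if either group had 3 or more arrays with the probe well above background (36086 between the HCC groups, 32666 between ICC and HCC), with Benjamini-Hochberg adjustment over all of them. A call needs an adjusted p under 0.05 and a change over 2-fold. A gene is read from its probe with the highest mean, and a bound is given where a group was below background on every array. Arrays have no read depth, and their number limits the precision. No probe was saturated (0 on every array). The fit was tested on simulated data.

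The members and the lists were chosen with earlier results of these data known. Named are all members, per list and comparison the 2 genes with the largest called rise and the 2 with the largest called fall, Zhx2, Zbtb20, Igf1r, Igf2r, Meg3, Lin28a and Hmga2 in any case, Trp53, and the 3 genes most like Igf2, H19 and Afp. Some genes that this rule names are not reported here. Igf2os was chosen after its values were seen. Probe positions are those of mm9 in the array files, promoter sequences are RefSeq's of GRCm38.p6 (7 of the 9 members have an entry, H19 and Igf2bp1 do not).

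Alternatives were the normexp correction (offset 50), quantile, median and other percentile scaling, 2 other filters on dim probes, slide, row or mouse as a block, 1 model of all arrays, the methods' t-test, the authors' table, other probes, the mean of the tumors of mouse 3717, and leaving out each tumor. The mouse pairs the HCC and ICC of 4 mice, since they are the same animals, and once group means were removed their arrays correlated with r of -0.14 to 0.07, against -0.26 to 0.28 for arrays of different mice. With the mouse as a block, the HCC of mouse 3975 and the ICC of mouse 3977, which have no partner, drop out. No sample was left out. P-values measure the spread between these tumors, some of which share a mouse.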

Additional observations from a re-analysis of the deposited data

Results flagged for a closer look

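In 2 of the 21 groups of 5 arrays examined for the 7 members, 1 tumor stood apart from the other 4 by Dixon's criterion, where chance gives about 1 in 20. H19 was 1.23 in the p53LKO HCC of mouse 3731, against 7.74 to 9.44 in the other 4. Dlk1 was 1.14 in the p53f/f HCC of mouse 3715, against -2.96 to -2.61 in the other 4. Both tumors had the probe well above background, as had the tumors they were compared with.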

How the results depend on the processing

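Scaling decided how many probes were called. Between the HCC groups, 1312 probes were called higher and 5774 lower in p53LKO HCC. With median scaling it was 7519 and 2813, and with the 75th percentile of the probes above background on all arrays 630 and 7942, and the median of all tested probes moved from -0.12 to 0.49 and -0.36. The t-test of the methods gave 841 higher, and normexp 1962 and quantile normalization 3710 lower. Leaving out 1 tumor gave 991 to 1681 higher and 4963 to 6102 lower. Of the genes in the pathway lists, 18 were called higher and 4 lower, and 9 were called higher with the percentile of detected probes, 37 with median scaling and 9 with quantile normalization (13 to 18 without 1 tumor), and lower were 11 with the percentile of detected probes and 7 with the row as a block (4 to 6 without 1 tumor). Zhx2 turned to -0.081 with normexp. Between ICC and HCC, 4225 probes were called higher and 4390 lower in ICC. With median scaling it was 3103 and 8197 and with the percentile of detected probes 6240 and 2252, normexp gave 2665 higher, and the median of all tested probes moved from -0.16 to -0.51 and 0.21. Leaving out 1 tumor gave 3253 to 4626 higher and 3878 to 4718 lower. Of the list genes 20 were called higher and 22 lower, and median scaling called 37 lower (19 to 23 lower and 16 to 22 higher without 1 tumor).

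Of the 3 members above background in both groups, 2 were called lower in ICC and 0 higher. Afp lost its call in 1 alternative, the t-test of the methods, and Dlk1 in 1, the row as a block, which left 1 member called in each. With the mouse as replicate block, Afp (-3.74) and Dlk1 (-3.66) were called, list genes called higher went from 20 to 16 and lower from 22 to 17, and probes called were 3314 higher and 3944 lower. Members above every p53f/f HCC in the HCC of mouse 3733 numbered 2 with the percentile of detected probes. The sign of Afp between the HCC groups turned in 5 of 22 alternatives (range -0.98 to 2.33). Where values moved, the cause was not tested. The authors' table was not run between ICC and HCC, since its columns are centred differently. Values of probes near background are bounds more than levels, which limits Igf2 and Igf2bp3 in p53f/f HCC and Igf2, Igf2bp2, Igf2bp3 and Dlk1 in ICC.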
